A study of Homo sapiens with 12 samples.

Results

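The clustered histone genes encode the core histones H2A, H2B, H3 and H4 and linker histones H1, and they were chosen here by symbol (H1-1 to H1-6, and every H2AC, H2BC, H3C and H4C symbol with a number). Of 19973 genes listed, 66 are described. They comprised 6 H1, 16 H2A, 17 H2B, 13 H3 and 14 H4 genes. On hg38, 55 lay on chromosome 6 and 11 on chromosome 1. RNA was sequenced from 2 non-small cell lung carcinoma lines, H460 and A549, that the labels mark WT, which says nothing of their tumour mutations, and that were non-treated (control) or exposed to isovalerylspiramycin I (ISP-I, a macrolide component of carrimycin) at 10 µM for 48 h, with 3 libraries in each of 4 groups and 12 in all. The comparison addressed what the drug did to the transcripts of each line. The values were FPKM, that is, a gene's fragment count divided by the gene's listed length and by all fragments counted in that library.

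Replication-type histone genes are transcribed in S phase, when new nucleosomes are assembled on the copied DNA. Their mRNAs are not spliced and, unlike other mRNAs, usually end without a poly(A) tail in a short stem-loop, which is bound by the protein SLBP and cut a few bases downstream with the help of the U7 small nuclear RNP. When a histone gene is read past the stem-loop to a downstream polyadenylation signal, the product is an ordinary polyadenylated mRNA, and such forms are known from differentiating and resting cells. An RNA-seq library made from poly(A) RNA holds mainly the second form. Whether poly(A) RNA was selected for these libraries is not given in the sources used here, so FPKM of these genes cannot be read as the amount of both forms together.

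The stem-loop was searched for in the 100 bases after the stop codon (hg38, GENCODE v44). Of the 66 genes, 64 matched this annotation by identifier, and all of these held a 16-base stem-loop, starting 23 to 63 bases after the stop. Of 19769 other genes, 6 (0.0304%) held one, namely H2AW, H2AX, H2BU1, H3-2, H3-4 and H4-16. The sites of the genes on which the results turn are printed 5′ to 3′ on the gene's strand, with the stem-loop in capitals and 5 bases on each side.
H1-2 (chr6:26055744-26055759, minus strand): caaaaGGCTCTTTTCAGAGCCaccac
H2AC6 (chr6:26124669-26124684, plus strand): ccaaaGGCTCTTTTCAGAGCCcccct
H2BC5 (chr6:26158587-26158602, plus strand): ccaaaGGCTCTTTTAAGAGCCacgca
H2BC12 (chr6:27146366-27146381, minus strand): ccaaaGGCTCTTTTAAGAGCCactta
H4C8 (chr6:26285131-26285146, minus strand): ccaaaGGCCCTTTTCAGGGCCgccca
H4C14 (chr1:149833032-149833047, plus strand): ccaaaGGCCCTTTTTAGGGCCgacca
In each of them a stem of paired bases closed a short loop rich in T. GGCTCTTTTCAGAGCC was the most frequent form (36 genes), followed by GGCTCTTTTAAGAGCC and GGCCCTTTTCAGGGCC (9 each).

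The genes differed in how far the listed gene reached beyond this site. In 42 genes the listed gene ended 0 to 86 bases past the stem-loop, as an mRNA without a poly(A) tail would. In 22 genes it extended 212 to 29196 bases past it, with the polyadenylation signal AATAAA in the last 60 bases of 14 of them, against 2 of the 42. H1-2 and H2BC12 belonged to the first class, and H2AC6, H2BC5, H4C8 and H4C14 to the second. The annotation decides this class, and FPKM does not show which transcript form gave the reads.

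Reads were recovered from FPKM, since every value times gene length was a whole multiple of 1 read (100% within 0.02 read). The libraries held 14225849 to 17874422 reads on genes, and the depth behind the histone genes was thin. Of the 66, 5 had no reads in any library (H2AC1, H2AC15, H2BC3, H3C4 and H4C7), 9 had 1 to 9 reads in all 12 libraries together, and 52 had at least 10. Of the 100-base windows of the H3C4 transcript, 96% also occur in an unnamed gene. H2AC15 lies within the listed span of H2BC15, on the other strand. For H3C4 and H2AC15, a lack of counted reads therefore need not mean a lack of transcript. Reads in every library were found for 27. A mean of at least 10 FPKM was reached by 4 genes, 21 had 1 to 10 FPKM, and 36 had reads but under 1 FPKM. The 5 leading genes were H2BC12 (110.9 FPKM on average), H1-2 (70.9), H2AC6 (18), H2BC5 (17.3) and H4C8 (6.49), and they held 71.2% of 43265 histone reads. The first 4 of them are also on a list of 8 matched genes with known polyadenylated transcripts, written from general knowledge. The 22 extended genes had a median of 543 reads in total and none was without reads, whereas the 42 genes that end near the stem-loop had a median of 42 reads and included all 5 genes without reads. The listed length differed as well, with medians of 1772 and 494 bases.

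A gene was tested in a line when its mean was at least 0.1 FPKM, which left 47 of the 66 in H460 and 48 in A549, with 43 tested in both lines and 14 in neither. It was called when log2(FPKM + 1) changed by more than 1 (2-fold) with an adjusted p under 0.05 (limma, Benjamini-Hochberg over all genes). "Rose" and "fell" are used for genes past the adjusted p, at any fold. The added 1 draws genes near 1 FPKM toward no change. The labels do not say whether libraries came from separate cultures, so p-values measure the spread between these libraries. In bulk RNA, fewer cells in S phase and less histone mRNA per cell cannot be told apart. The keratins KRT8, KRT18 and KRT19 were at 43.8 to 748 FPKM in all 12 libraries, but the epithelial markers CDH1 and EPCAM were at or near 0 in H460 controls (0 and 0.0473 FPKM). In A549, CDH1 averaged 4.90 FPKM in controls and 0.756 after ISP-I. Of markers that the cultures should lack, PTPRC and DCN reached at most 0.0368 and 0.0161 FPKM. COL3A1, however, averaged 8.60 FPKM in H460 controls and 2.25 after ISP-I, and PDGFRB 0.543 and 2.40. In A549 they averaged 0.0983 and 0.0697, and 0.0194 and 0.278.

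ISP-I library 3 of H460 stood apart by gene length. Relative to the mean of ISP-I libraries 1 and 2, the 36 other genes under 800 bases that averaged 5 FPKM or more had a median log2 ratio of 1.04 in it, and the 1139 other genes of 8000 bases and over had -0.34. In the other groups, short genes chosen in the same way had medians of -0.32 to 0.35 for a library against the other two. Many histone genes are short, so values for this library are given apart where they matter. H1-2 (731 bases) was 1.22 higher in library 3 on this scale and H2BC12 (495 bases) 1.16, whereas H4C12 (387 bases) was 0.04 higher. Values without this library, or with each library's trend with gene length removed, are given beside the results that they move.

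**Figure D1:**
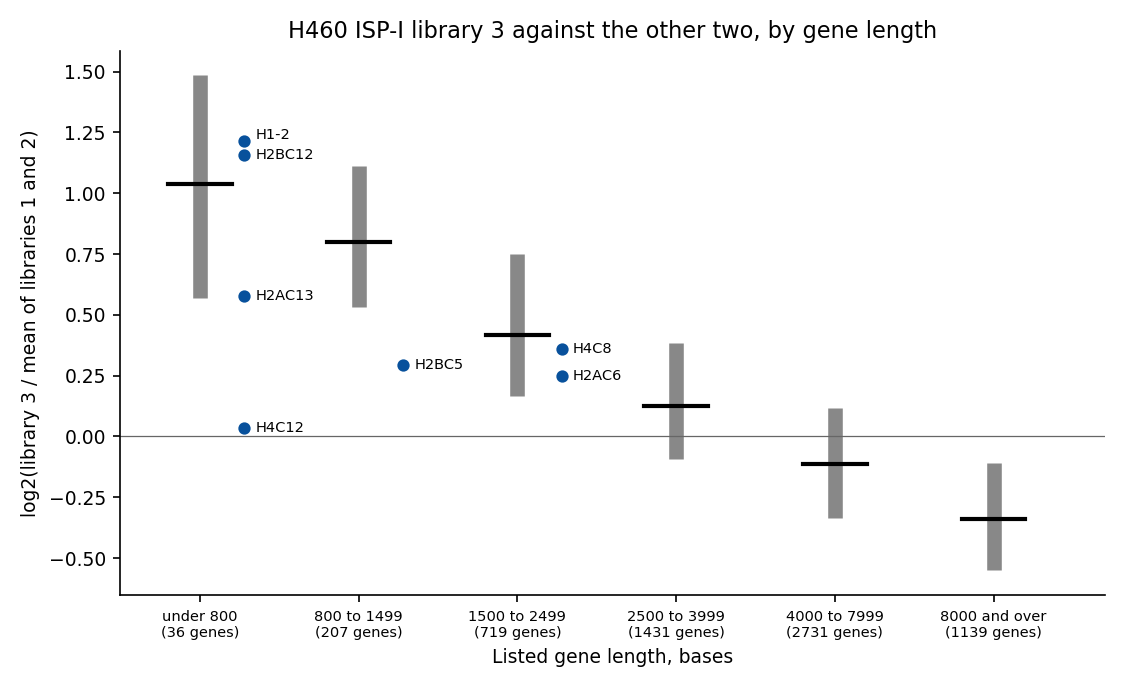
Log2 ratio of FPKM in H460 ISP-I library 3 over the mean of libraries 1 and 2 (vertical axis), by listed gene length in bases (horizontal axis). Black lines are medians and grey bars the middle 50% of other genes averaging 5 FPKM or more in H460, and blue points are 7 histone genes. The median falls from 1.04 under 800 bases to -0.34 at 8000 bases and over, and H1-2 and H2BC12 lie at 1.22 and 1.16.

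In H460, the summed FPKM of the histone genes was 228, 242 and 247 in the controls and 431, 421 and 795 after ISP-I, so the groups did not overlap. The ratio of means was 2.30, and 1.78 without ISP-I library 3. In A549, the sum was 134, 134 and 150.4 in the controls and 215, 231 and 216 after ISP-I (ratio 1.58), and again the groups did not overlap. The sums stand for the genes with many reads and carry no test.

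By family, H1 had the largest ratio in both lines. It was at 23.8 ± 4.59 FPKM in H460 controls and 158 ± 80.1 after ISP-I (mean ± SD, n = 3 libraries), a ratio of 6.64, or 4.70 without ISP-I library 3. In A549 it was at 20.5 ± 5 and 98.3 ± 7.88, a ratio of 4.79. H4, the smallest core family in A549 controls, went from 12.8 ± 1.41 to 41.3 ± 5.36 in H460 and from 6.36 ± 1.17 to 20.9 ± 2.83 in A549, ratios of 3.24 and 3.28. H2A went from 20.2 ± 2.32 to 50.7 ± 9.42 in H460 and from 27.8 ± 0.812 to 33.4 ± 0.938 in A549. H2B sums lay higher after ISP-I in H460 and lower in A549. The family was at 172 ± 15.7 in H460 controls and 282 ± 119 after ISP-I, but 74.7 ± 3.59 in A549 controls and 56.9 ± 0.463 after ISP-I. Without ISP-I library 3 the H2B ratio in H460 was 1.24 in place of 1.64. H3 was 10.2 ± 2.28 and 16.9 ± 1.94 in H460, and 9.92 ± 1.13 and 11.2 ± 1.37 in A549, where the groups overlapped. Dividing FPKM by median-of-ratios factors turned none of these directions, and gave H2B ratios of 1.99 in H460 and 0.744 in A549.

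**Figure D2:**
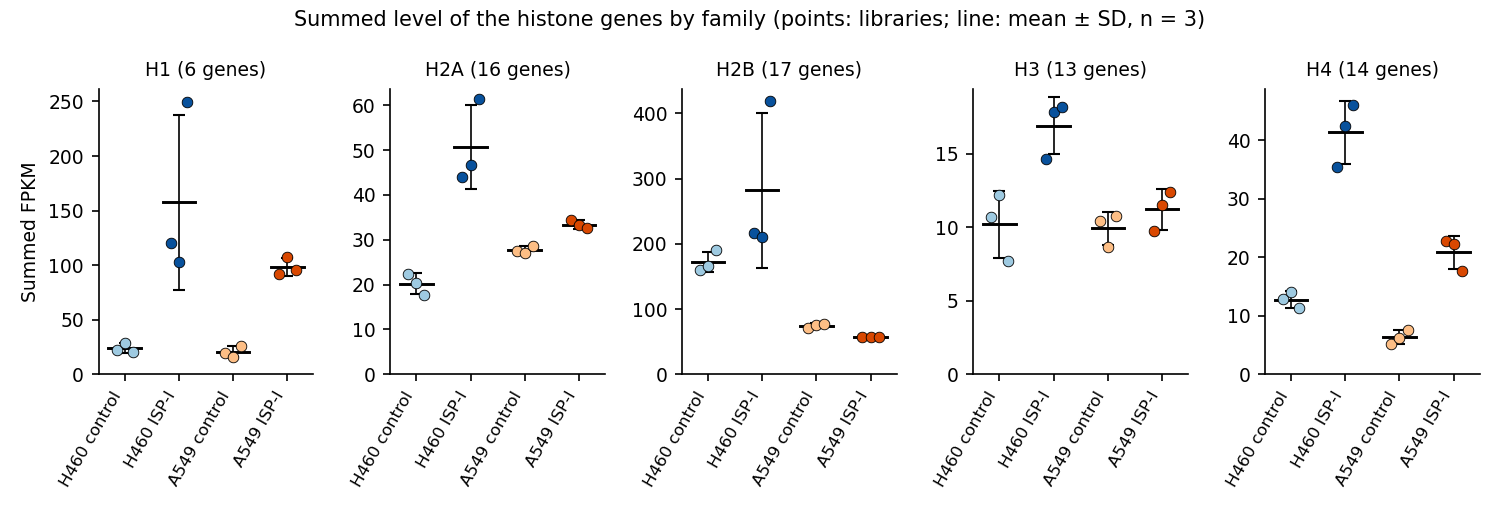
Summed FPKM (vertical axis, each panel from 0) of the histone genes of each family in the 4 groups. Points are libraries, lines are means and bars are SD (n = 3). H1 and H4 lie higher after ISP-I in both lines, H2B lies lower after ISP-I in A549, and 1 H460 ISP-I library (library 3) is set apart in H1 and H2B.

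After ISP-I in H460, 10 of 47 histone genes tested were called higher (21.3%, against 10.5% of all 13423 genes tested) and 0 were called lower (15.2% of all genes). At any fold, 23 rose (48.9%, against 27.6% of all genes) and 0 fell (41.5%). Of those that rose, H2AC18, H2AC19 and H4C15 averaged under 0.1 FPKM in controls and passed the filter only through the ISP-I group. A rise was the only change open to them, so their p-values lend no support. At an unadjusted p under 0.05, 0 of the 47 were lower by limma, and limma voom on the recovered reads called 0 lower. The median change of the members was 0.44, against -0.15 for all genes. Dividing by median-of-ratios factors moved the median of all genes to 0.01 and that of the histone genes to 0.61, and the changes in H460 are given on the unshifted scale. With each library's length trend removed, the median of the histone genes was 0.76, against 0.07 for all genes. Then 19 histone genes were called higher, without a share of all genes to set beside them. The genes called were H1-2, H1-4, H2AC6, H2BC5, H2BC15, H2BC18, H3C13, H4C8, H4C12 and H4C14, which represent every family.

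In A549, 4 of 48 were called higher (8.33%, against 4.2% of all 13705 genes) and 0 lower (3.51%). At an unadjusted p under 0.05, 7 of the 48 were lower by limma, and limma voom on the recovered reads called 1 lower, H2BC6. At any fold, 15 rose (31.2%, against 30.5%) and 5 fell (10.4%, against 27.0%). Of those that rose, H2AC8, H2BC8, H2AC18 and H2AC19 averaged under 0.1 FPKM in controls and passed the filter only through the ISP-I group. A rise was the only change open to them, so their p-values lend no support. H3C7, which fell, passed the filter only through the controls. The median change was 0.12, against 0.02 for all genes, and it was -0.10 after removal of each library's trend with gene length. The genes called were H1-2, H4C2, H4C8 and H4C14, and all but H4C2 were called in H460 too.

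Among the linker histones, which bind the DNA between nucleosomes, H1-2 had the largest change in both lines, on the log2(FPKM + 1) scale and by ratio of mean FPKM. In H460 it was at 21.1, 26.5 and 18.2 FPKM in the controls and at 112, 94.4 and 240.1 after ISP-I. In A549 it was at 17.3, 13.2 and 23.3 and at 89.3, 102 and 92.2. The groups were apart in each line, with 142 to 294 reads per control library and 967 to 2604 after ISP-I. The log2 change was 2.60 in H460 (SE 0.32, adjusted p 0.000127) and 2.37 in A549 (SE 0.172, adjusted p 1.42e-05). Without ISP-I library 3 it was 2.20 in H460.

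H1-4 rose beyond the threshold in H460, from 0.618, 1.92 and 1.71 to 6.90, 7.25 and 7.11 FPKM (1.79, SE 0.21, adjusted p 9.59e-05). In A549 it was at 1.52, 1.47 and 0.861 and at 1.53, 2.59 and 2.13 (0.43, adjusted p 0.045), and the groups came close to each other. The change of H1-4 differed between the lines by 1.36 (SE 0.289, adjusted p 0.00184, interaction of line and treatment). In H460, the reads of H1-3 went from 0 to 5 in a control library to 12 to 19 in an ISP-I library (0.81, adjusted p 0.00232).

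Among the H4 genes, which encode 1 of the core histones, H4C8 had the largest change on the log2(FPKM + 1) scale. By ratio of mean FPKM it was first in H460 (15.2), but in A549 the ratio of H4C14 (16.3) was above that of H4C8 (7.32). H4C8 was at 0.996, 0.913 and 1.02 FPKM in H460 controls and at 12.4, 14.8 and 17.4 after ISP-I, with 30 to 33 and 478 to 560 reads. In A549 it was at 1.10, 1.35 and 1.19 and at 8.45, 9.96 and 8.28. Both lines therefore began near 1 FPKM and ended far above it, with log2 changes of 2.99 (SE 0.137, adjusted p 7.92e-07) and 2.16 (SE 0.0938, adjusted p 1.33e-06). H4C8 is an extended gene, listed on hg38 at chr6:26277609-26285638. In its 409-base canonical transcript, 27.1% of the 100-base windows also occur in an unnamed gene. The rest of its listed length (2163 bases) was not compared.

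H4C14 (chr1:149832659-149839767) was at 0.187, 0.363 and 0.289 FPKM in A549 controls and at 4.71, 5 and 3.98 after ISP-I (2.12, SE 0.0965, adjusted p 1.61e-06). In H460 it was at 0.852, 0.702 and 0.358 and at 5.76, 7.52 and 1.47 (1.69, SE 0.40, adjusted p 0.00522). The low H460 value was that of library 3, without which the change was 2.22. All 100-base windows of the 396-base canonical transcript of H4C14 also occur in H4C15, which had 34 reads in total against 931. The rest of the listed length of H4C14 (1876 bases) was not compared. H4C14 also overlaps H3C14 on the other strand. How the authors' counting treated reads shared by these genes is not stated, nor is the strand setting, so such reads cannot be told apart. H4C12 was at 4.67, 4.25 and 1.73 FPKM in H460 controls and at 6.65, 9.31 and 8.18 after ISP-I (1.05, SE 0.266, adjusted p 0.00723), just past the threshold, and the change was 0.72 without control library 3 and 0.95 without ISP-I library 2. Of the 100-base windows of H4C12, 91.3% also occur in H4C11, so the gene that gave its reads is uncertain. H4C2 was called in A549 on few reads, 0, 0 and 4 in the controls and 10, 13 and 6 after ISP-I (1.05, SE 0.209, adjusted p 0.00301), and the change was 0.93 without control library 1 or 2, 0.92 without ISP-I library 2, 0.98 with median-of-ratios factors and 0.83 with length trends removed. H4C9 rose in H460 from 2.74, 2.59 and 3.58 to 4.41, 5.34 and 6.72 FPKM (0.70, adjusted p 0.00441), while in A549 its change was -0.09 (adjusted p 0.761).

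**Figure D3:**
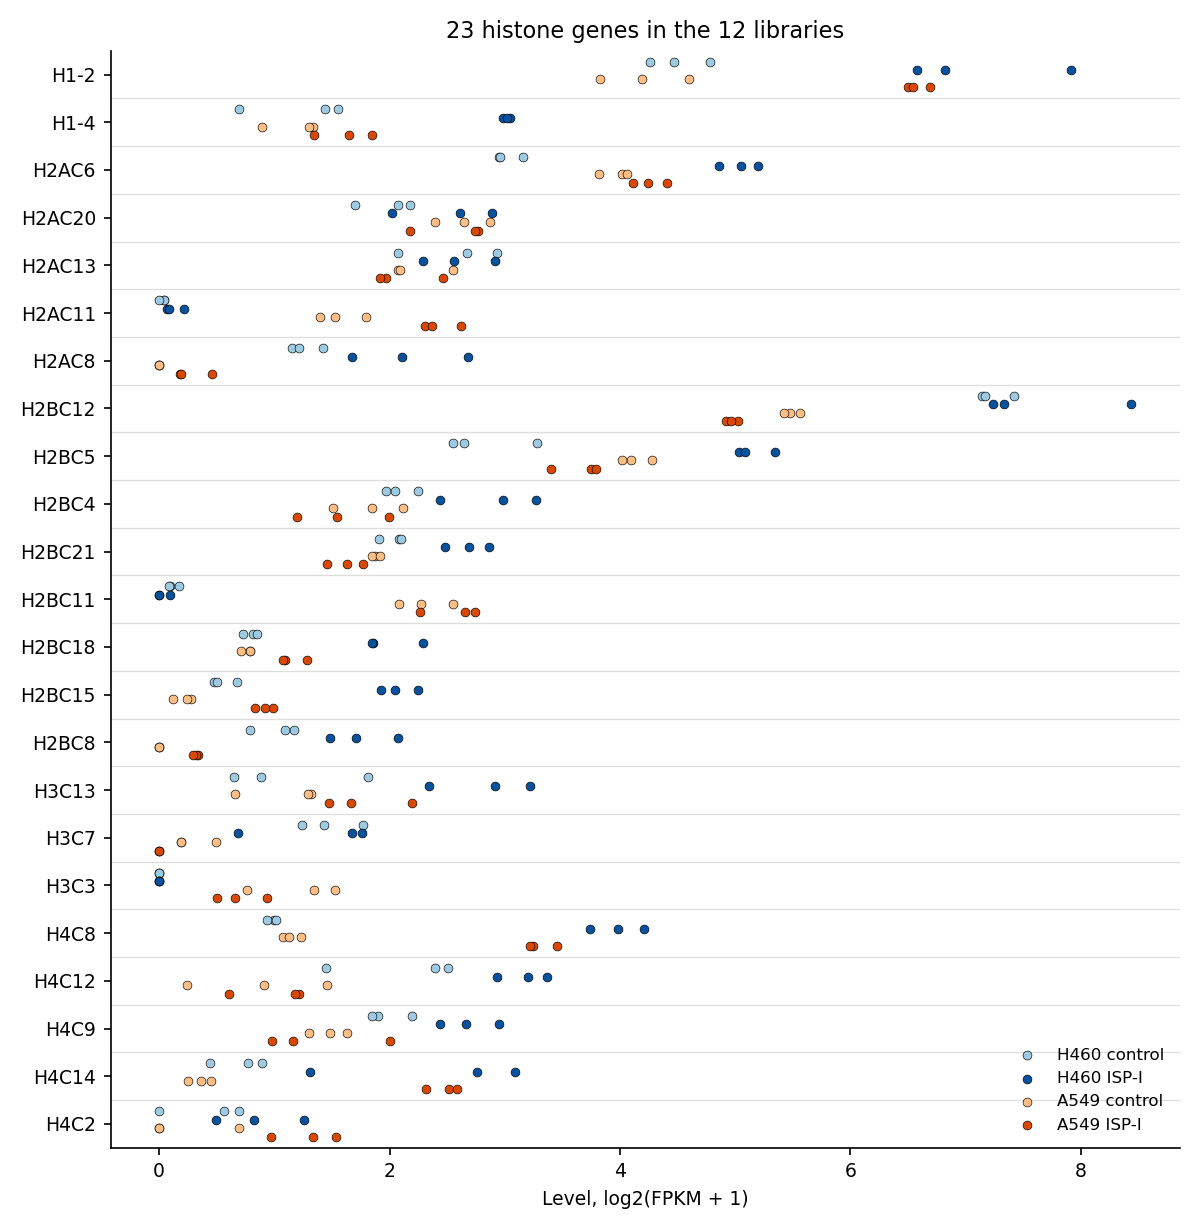
Level of 23 histone genes, log2(FPKM + 1) (horizontal axis), in each of the 12 libraries, with genes ordered by family and level (vertical axis) and colours for the 4 groups. H1-2, H4C8 and H4C14 lie higher after ISP-I in both lines, H2BC5 lies higher in H460 and lower in A549, and H2BC11 and H2AC11 lie near 0 in all H460 libraries.

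The H2B family held the gene with the largest difference between the lines. H2BC5 (chr6:26158146-26171349), an extended gene, was at 5.27, 8.69 and 4.85 FPKM in H460 controls and at 31.7, 32.9 and 39.7 after ISP-I (2.33, SE 0.198, adjusted p 1.42e-05). In A549 it was at 16.1, 18.4 and 15.2 and at 12.5, 9.59 and 12.9 (-0.48, SE 0.119, adjusted p 0.00883). It thus rose in H460 and fell in A549, with no overlap between the groups in either line. The difference between the changes was 2.81 (SE 0.251, adjusted p 2.51e-06), the largest among the 50 histone genes tested for it.

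H2BC12, the gene with the highest mean level, is listed as a short gene that ends 5 bases past the stem-loop. It was at 140.1, 142 and 170.2 FPKM in H460 controls and at 160.0, 150.3 and 346 after ISP-I. The groups overlapped (0.43, SE 0.299, adjusted p 0.229), and only library 3 lay above all controls. Without this library the change was 0.04, and with length trends removed it was 0.72 (adjusted p 0.0006). In A549 it fell from 43.5, 41.9 and 46.4 to 29.2, 31.6 and 30.1 (-0.52, SE 0.0675, adjusted p 0.000309). The other H2B genes that fell in A549 were H2BC6 (-0.49, adjusted p 0.000549) and H2BC21 (-0.26, adjusted p 0.0453), and each of them rose in H460 (0.45, adjusted p 0.00416, and 0.65, adjusted p 0.00227). H3C7 was the fifth gene that fell in A549, on 5 control reads in all.

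Other H2B genes rose in both lines. H2BC15 was at 0.393, 0.601 and 0.417 FPKM in H460 controls and at 2.81, 3.74 and 3.13 after ISP-I (1.52, SE 0.114, adjusted p 7.51e-06). In A549 it was at 0.0898, 0.211 and 0.185 and at 0.783, 0.978 and 0.891 (0.70, SE 0.0699, adjusted p 7.72e-05). H2BC15 is listed over a long span that contains H2AC16 on the same strand and H2AC15 on the other. H2BC18 rose from 0.761, 0.659 and 0.798 to 2.63, 3.89 and 2.59 in H460 (1.20, adjusted p 7.4e-05) and from 0.726, 0.724 and 0.636 to 1.13, 1.44 and 1.11 in A549 (0.39, adjusted p 0.00314). In its 492-base canonical transcript, 44% of the windows also occur in other genes, H2BC21 among them. The rest of its listed length (3196 bases) was not compared.

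Among the H2A genes, H2AC6 (chr6:26124145-26139116) had the largest change in H460 on the log2(FPKM + 1) scale, from 7.92, 6.75 and 6.76 to 32.1, 28 and 35.7 FPKM (2.01, SE 0.128, adjusted p 3.25e-06). H2AC18 and H2AC19 rose from fewer reads, 0 to 2 and 0 to 1 per H460 control library, to 8 to 11 and 5 to 17 (0.92, adjusted p 0.00018, and 0.89, adjusted p 0.00399), and the added 1 lessens changes at such levels. Both passed the filter only through the ISP-I group. In A549, H2AC6 was at 15.2, 15.7 and 13.1 and at 16.3, 17.9 and 20.3 (0.29, SE 0.0992, adjusted p 0.0348). The change of H2AC6 differed between the lines by 1.72 (SE 0.161, adjusted p 3.66e-06). H2AC13 and H2AC20, also among the 12 genes with the highest level, had changes of 0.03 (adjusted p 0.911) and 0.52 (adjusted p 0.0671) in H460, and -0.12 (adjusted p 0.593) and -0.07 (adjusted p 0.743) in A549. Of the H3 genes, H3C13 was called in H460, with 17, 6 and 4 reads in the controls and 34, 51 and 58 after ISP-I (1.71, SE 0.319, adjusted p 0.00144). In A549 its change was 0.69 (adjusted p 0.0294). Of its windows, 46.2% also occur in other H3 genes or pseudogenes.

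For 4 of 50 genes, the changes in the 2 lines were more than 1 apart on the log2 scale with an adjusted p under 0.05 (8%, against 5.93% of all 13953 genes), all of them higher in H460. In the other direction the count was 0 (10.1% of all genes), with 2 genes at an unadjusted p under 0.05 by limma and 1 call, H2BC8, by limma voom on the recovered reads. The 4 were H2BC5, H2AC6, H1-4 and H2BC4, with H2BC4 at 1.06 (SE 0.33, adjusted p 0.0171). All windows of the 460-base canonical transcript of H2BC4 also occur in an unnamed gene, and the rest of its listed length (834 bases) was not compared. The difference of H2BC4 fell short of the threshold without 1 of 4 libraries, at 0.87 without H460 ISP-I library 3, 0.86 without A549 ISP-I library 1, 0.91 without A549 control library 2 and 0.9985 without H460 control library 2. Without H460 ISP-I library 1 or 2, 7 genes were called, H2BC12 among them in each case. The median of all genes, at -0.16 in this comparison, became 0.02 with median-of-ratios factors. Under these, 14 histone genes were called, without a share of all genes to set beside them.

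**Figure D4:**
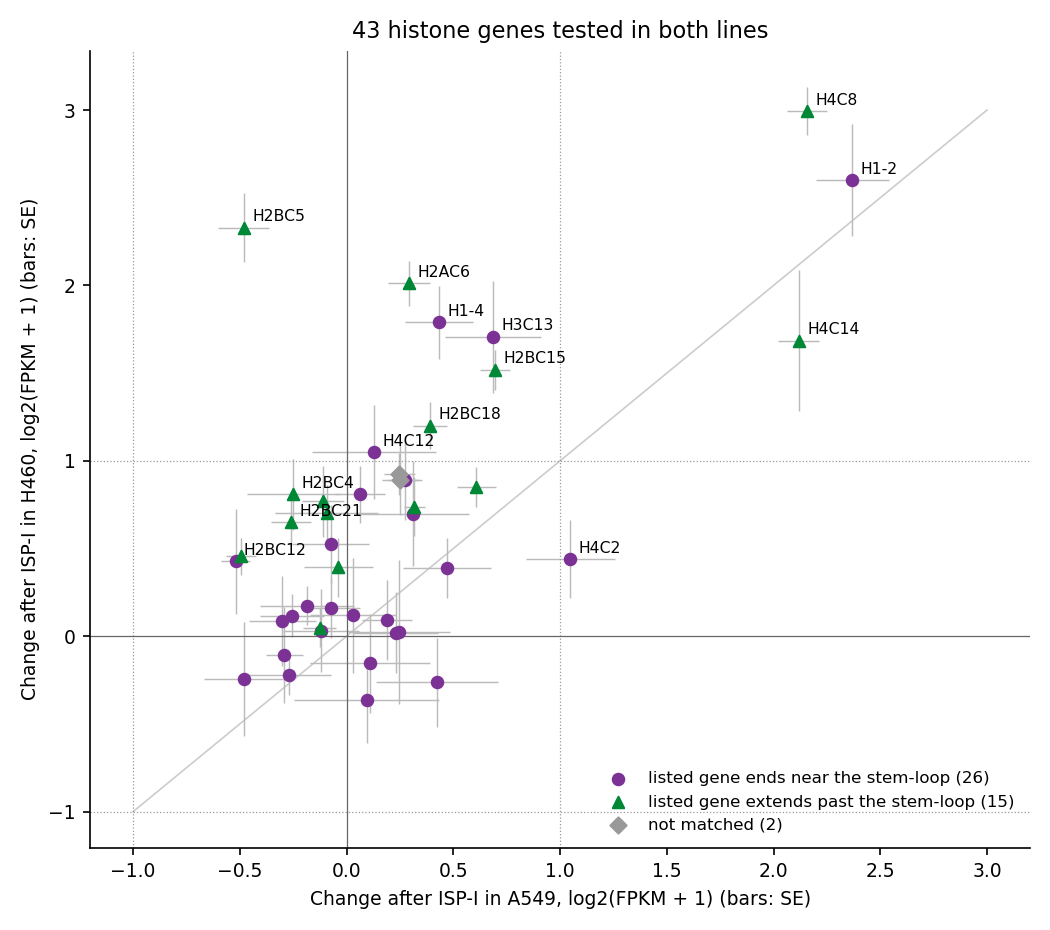
Change after ISP-I on the log2(FPKM + 1) scale in A549 (horizontal axis) and H460 (vertical axis) for the 43 histone genes tested in both lines, with SE bars, the 2-fold threshold dotted and equal change as a diagonal. Colours and shapes mark where the listed gene ends. H4C8, H1-2 and H4C14 are past 2 in A549, and H2BC5 lies at 2.33 in H460 and -0.48 in A549.

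The class of the listed end was compared with the changes. In H460, 15 of 17 extended genes tested rose and 6 of them were called, and of 28 genes that end near the stem-loop 6 rose and 4 were called. Of all genes tested in H460, 27.6% rose and 10.5% were called higher. The median changes were 0.77 and 0.12. In A549, 8 of 17 extended genes rose and 3 fell, and of 29 genes ending near the stem-loop 5 rose and 2 fell (30.5% and 27.0% of all genes), with medians of 0.25 and 0.09. The 8 genes known to have polyadenylated transcripts gave 6 that rose of 7 tested in H460 and 3 that rose and 3 that fell of 8 in A549. By median per gene, the extended genes had more reads (543 against 42 in total), and changes are easier to detect with more reads. Of all histone reads, however, 53.8% fell on genes ending near the stem-loop and 46.1% on extended genes. The added 1 also draws genes near 1 FPKM toward no change. The counts of genes that rose include some that passed the filter only through the ISP-I group (H4C15 in H460, H2BC8 and H2AC8 in A549). These counts and medians carry no test of the classes.

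Some members differed in level between the control lines. In controls, 5 of 48 genes were higher in H460 by the 2-fold rule (10.4%, against 5.64% of 13532 genes) and 4 were lower (8.33%, against 8.78%). H2BC12 was higher in H460 (1.75, SE 0.102, adjusted p 1.39e-06), as were H2AC8, H2BC8, H3C7 and H4C12. The call of H4C12 was lost without H460 control library 1 (adjusted p 0.0575) or A549 control library 1 (0.93), and that of H2BC8 without H460 control library 2 (0.94) or 3 (0.98). H2BC5 (-1.31, adjusted p 0.000339), H2AC11, H2BC11 and H3C3 were lower. H2AC8 and H2BC8 passed the filter only through the H460 controls, and H2AC11, H2BC11 and H3C3 only through the A549 controls. H3C3 had 5 to 13 reads per A549 control library and 0 reads in each of 6 H460 libraries, so its FPKM was at least 9.84-fold higher in A549 controls, taking 3 reads over the H460 control group as the floor. H3C7 had 10 to 18 reads per H460 control library, 5 in the 3 A549 controls together and 0 in the 3 A549 ISP-I libraries, which allows up to 0.135 FPKM there.

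Many H2A and H2B genes lie head to head, with start sites close together and a shared promoter between them. Of the 66 genes, 10 H2A-H2B pairs had listed start sites 215 to 283 bases apart. The pair H2BC11 and H2AC11 is separated by 247 bases and the pair H2BC8 and H2AC8 by 283. The 300-base promoter windows of H2AC11 and H2AC8 (RefSeq, GRCh38.p14), which cover the first gap whole and all but a few bases of the second, are shown because both genes of each pair were nearly silent in 1 of the lines. The H1-2 window is shown as the linker histone that rose in both lines. Capitals mark 4 motifs on either strand. The motif TATAAA is the TATA box, the motif CCAAT is bound by NF-Y, the motif ATTTGCAT is the octamer bound by OCT1, and the motif AAACACA is a box of H1 promoters. Overlapping matches are merged.
H2AC11 (chr6:27132793-27133092, plus strand): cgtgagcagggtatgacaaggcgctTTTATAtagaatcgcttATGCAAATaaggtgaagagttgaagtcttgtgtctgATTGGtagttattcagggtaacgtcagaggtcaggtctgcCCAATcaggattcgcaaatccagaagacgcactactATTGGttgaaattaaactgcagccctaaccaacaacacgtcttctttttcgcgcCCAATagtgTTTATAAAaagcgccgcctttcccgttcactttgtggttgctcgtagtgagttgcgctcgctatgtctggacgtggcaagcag
H2AC8 (chr6:26216671-26216970, plus strand): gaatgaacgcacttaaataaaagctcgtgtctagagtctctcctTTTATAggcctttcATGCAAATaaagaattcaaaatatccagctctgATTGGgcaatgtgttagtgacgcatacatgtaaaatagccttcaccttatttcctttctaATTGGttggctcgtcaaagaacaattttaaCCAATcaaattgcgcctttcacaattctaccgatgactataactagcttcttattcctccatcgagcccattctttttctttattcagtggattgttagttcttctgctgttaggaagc
H1-2 (chr6:26056421-26056720, minus strand): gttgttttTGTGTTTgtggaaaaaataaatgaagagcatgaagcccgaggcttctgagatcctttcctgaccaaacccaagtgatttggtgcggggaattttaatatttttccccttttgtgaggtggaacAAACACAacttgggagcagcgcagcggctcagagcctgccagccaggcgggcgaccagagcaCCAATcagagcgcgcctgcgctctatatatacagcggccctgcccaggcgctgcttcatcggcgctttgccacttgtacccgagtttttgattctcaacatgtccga
The octamer stood in 14 of 17 H2B, 11 of 15 H2A, 0 of 10 H3 and 0 of 6 H1 and 12 H4 promoters that were matched, against 1.8% of 27305 promoters in RefSeq. AAACACA stood in 6 of 6 H1 promoters (5.76% of all), and CCAAT in every H1, H2A, H2B and H3 promoter and in 3 of 12 H4 promoters (35.7% of all). TATAAA stood in 12 of 17 H2B and 12 of 15 H2A promoters (12% of all). The windows of head-to-head genes overlap, so the same match can be counted for both the H2A and the H2B gene. In the H2AC8 window, the 1 match to TATAAA lies at the end toward H2BC8. A match describes the letters in the window and not binding.

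In each of these pairs both genes followed the line, which the choice of the pairs had set beforehand. No such count was made over all pairs. Between the control lines, H2BC12 differed by 1.75 and its partner H2AC12, on few reads, by -0.02 (adjusted p 0.931, limma). H2BC11 had 48 to 75 reads per A549 control library (3.23, 3.84 and 4.86 FPKM) and 1, 1 and 2 reads in H460 controls. H2AC11 had 54 to 82 reads in A549 controls and 1, 1 and 0 in H460 controls. In A549, H2AC11 rose after ISP-I, from 1.87, 2.48 and 1.63 to 5.15, 3.94 and 4.15 FPKM (0.86, SE 0.129, adjusted p 0.000683), and H2BC11 went from the values above to 5.70, 5.30 and 3.80, with overlap (0.25, adjusted p 0.201). H2BC8 and H2AC8 showed the opposite pattern. They had 16 to 29 and 9 to 13 reads per H460 control library, and no reads in the 3 A549 controls, so that H460 was at least 23.2-fold and 10.5-fold higher by the same floor. Both rose after ISP-I in H460, H2BC8 to 2.26, 1.80 and 3.21 FPKM (0.74, adjusted p 0.00409) and H2AC8 to 2.20, 3.30 and 5.43 FPKM (0.89, adjusted p 0.00782). In A549 they gained 17 and 5 reads after ISP-I (0.32, adjusted p 0.000667, and 0.27, adjusted p 0.0187). There they passed the filter only through the ISP-I group, so a rise was the only change open to them.

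**Figure D5:**
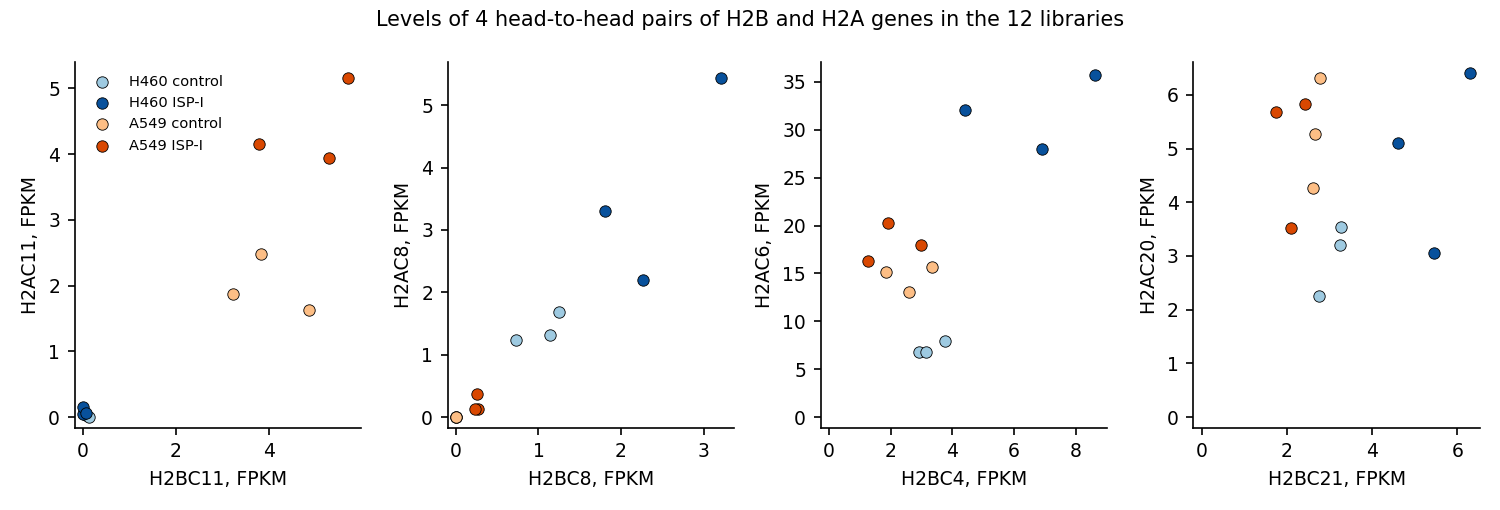
FPKM of the H2B gene (horizontal axis) and the H2A gene (vertical axis) of 4 head-to-head pairs, each point 1 of 12 libraries coloured by group. H2BC11 and H2AC11 lie near 0 in all H460 libraries, and H2BC8 and H2AC8 at 0 in the A549 controls.

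The head-to-head genes did not always move alike. H2AC6 and H2BC4 start 219 bases apart. In H460, H2AC6 changed by 2.01 and H2BC4 by 0.81 (from 3.75, 2.92 and 3.14 to 4.43, 6.91 and 8.65 FPKM, adjusted p 0.00708), and in A549 H2BC4 was at 1.85, 3.34 and 2.60 and at 1.28, 2.98 and 1.92 (-0.25, adjusted p 0.353). H2BC12 had 10143 reads in all and its partner H2AC12 had 50. These differences within pairs were not tested.

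The histone genes were set beside lists of related genes. Of 22 S phase and replication markers, 13 were called lower in H460 (against 15.2% of all genes) and 7 in A549 (3.51%), and 0 were called higher in either line (0 also at an unadjusted p under 0.05 and by limma voom on the recovered reads). At any fold, 21 fell in H460 (against 41.5% of all genes) and 20 in A549 (27.0%). PCNA, the sliding clamp of DNA polymerases, fell by 2.94 on the log2 scale in H460 (adjusted p 8.2e-07) and by 0.84 in A549 (adjusted p 2.41e-05). RRM2, a subunit of ribonucleotide reductase, fell by 2.18 (adjusted p 1.63e-06) and 1.20 (adjusted p 6.25e-06). Of 24 histone chaperones and assembly factors tested, 7 were called lower in H460 and 3 in A549, with CHAF1B, a subunit of the assembly factor CAF-1, at -1.69 (adjusted p 4.13e-06) and -0.93 (adjusted p 3.66e-05). The histone genes that rose therefore rose in libraries in which most markers of S phase fell.

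The replication-independent histone variants are made in part outside S phase and mostly from polyadenylated mRNAs, although H2AX has the stem-loop as well. Of 10 tested in H460, 6 were called lower (against 15.2% of all genes) and 1 was called higher (10.5%). CENPA was also on the planned list but was missed in matching and is not among these genes. Of 10 tested in A549, 2 were called lower (against 3.51% of all genes) and 0 higher (4.2%). At an unadjusted p under 0.05, 2 were higher by limma, and limma voom called 0 higher. H2AX, which carries the phosphorylation that marks DNA breaks, fell from 162 ± 10.6 to 60.7 ± 11.6 FPKM in H460 (-1.42, adjusted p 7.5e-05) and from 153 ± 7.01 to 62.0 ± 2.07 in A549 (-1.29, adjusted p 2.97e-06). The genes for the variant H3.3 moved apart, with H3-3A at -1.61 (adjusted p 1.41e-05) and H3-3B at 1.65 (adjusted p 2.47e-05) in H460, and at -1.48 (adjusted p 1.56e-06) and 0.68 (adjusted p 8.3e-05) in A549. Of the other 5 genes with a stem-loop after the stop, H2AW was called higher in H460 (1.09, SE 0.21, adjusted p 0.00175).

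Of 19 factors that transcribe histone genes or form the ends of their mRNAs, 1 was called higher and 2 lower in H460, shares below those of all genes (10.5% and 15.2%). In A549 0 were called, with 5 higher and 3 lower at an unadjusted p under 0.05 by limma and 1 called higher by limma voom. Of all genes tested in A549, 4.2% were called higher and 3.51% lower. SLBP, which binds the stem-loop, fell from 53.7 ± 0.89 to 28.6 ± 3.07 FPKM in H460 (-0.89, adjusted p 0.000207) and was at 42.8 ± 1.84 and 41.6 ± 2 in A549 (-0.04, adjusted p 0.643), and the change differed between the lines (-0.85, adjusted p 0.000123). LSM10, a subunit of the U7 particle, fell by 2.04 in H460 (adjusted p 0.000317) and had -0.30 in A549 (adjusted p 0.164). SNRPD3, a shared Sm protein, fell by 1.21 (adjusted p 1.93e-05) and 0.58 (adjusted p 0.000905). ZNF473, the U7-associated zinc finger protein, rose by 1.21 (adjusted p 4.31e-05) and 0.86 (adjusted p 5.83e-05). NPAT, the coactivator of histone genes in S phase, had changes of 0.19 (adjusted p 0.365) and -0.06 (adjusted p 0.799). Of 15 factors of histone mRNA decay and polyadenylation, 1 was called higher in H460 (against 10.5% of all genes) and 0 lower (15.2%). At an unadjusted p under 0.05, 4 were lower by limma, and limma voom called 0 lower. The gene called was TUT7, which adds uridines to RNA ends (2.72, adjusted p 5.27e-05). In A549 0 were called, with 5 higher and 1 lower at an unadjusted p under 0.05 by limma and 0 calls by limma voom. The part of these factors in the changes of histone mRNAs was not tested.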

How the data were processed

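RNA of H460 and A549 cells (12 libraries) was sequenced as paired ends on a NovaSeq. The authors used FastQC for read quality, HISAT2 for alignment to hg38 and HTSeq 0.9.1 for counting, and deposited FPKM per gene. The kit is named in the labels, but poly(A) selection, strand setting and annotation version are not given in the sources used here. Of the lines of the table, 4 were pieces of an overlong cell and were left out.

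Genes averaging 0.1 FPKM or more in the libraries compared were fitted on log2(FPKM + 1) with limma 3.58.1 (R 4.3.3, mean-variance trend), within each line and, for the difference between lines and the control lines, over the groups concerned. P-values were adjusted by Benjamini-Hochberg over all genes. The script was tested on simulated data. Whole reads were recovered from FPKM and used with limma voom as an alternative (genes with at least 10 reads in 3 libraries). Between libraries of a group, chi-square per degree of freedom was 2.95 to 92.0, above the 1 that sampling alone gives, and each was kept. Other alternatives were no filter or one at 1 FPKM, a pseudocount of 0.1, median-of-ratios factors, quantile normalization, a joint fit of all 12 libraries, and each library left out in turn. Removal of trends with GC content or gene length (lowess, span 0.3) were added after seeing the data.

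The members and all lists were chosen with earlier results of these data known. 1 gene that the rule took in is not reported here and is left out of counts and sums. Named were members called in a line, up to 10 called in each of the other comparisons, the 12 with the highest mean FPKM and, of the related lists, called genes and the 3 with the smallest p over both lines, of which the text gives a part. Genes named beyond this rule (H1-3, H2AC12, H2AC18, H2AC19, H2BC6, H4C11, H4C15, NPAT and SLBP) were chosen after their values were seen. Of 7 gene lists, that of RNAs without poly(A) tails gave 0 matched genes and was not analysed here, so the capture of such RNAs was not gauged. Reference sequences were read from hg38 with GENCODE v44 and from RefSeq promoters (60 of 66 matched, after a window shared by H2AC7 and H3C4 was kept for H2AC7, whose start it holds). Python 3.11.15 (pandas 2.3.3, numpy 2.4.6) and matplotlib 3.10.9 served for tables and plots. Intervals were not given, and floors of 3 reads cover counting error only.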

Additional observations from a re-analysis of the deposited data

Results flagged for a closer look

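The change after ISP-I differed between H460 and A549, by the interaction term of a limma fit of all 12 libraries, for 4 histone genes, each with the larger change in H460. The difference was 2.81 for H2BC5, 1.72 for H2AC6, 1.36 for H1-4 and 1.06 for H2BC4. H2BC5 rose in H460 and fell in A549. The values of H2BC4 ranged from 0.86 to 1.63 over the alternatives (adjusted p 0.0016 to 0.052), and those of H2BC5 from 2.67 to 3.34 (adjusted p 2.66e-07 to 6e-05). Groups of 3 libraries were too small for a test of single outlying libraries.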

How the results depend on the processing

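No paired analysis was possible because the columns number untreated libraries 1 to 3 and treated libraries 4 to 6, so the groups share no numbers. The number of histone genes called higher in H460, 10 as reported, was 19 with a pseudocount of 0.1, 16 and 19 with voom (library totals and median-of-ratios factors), 21 with GC trends and 19 with length trends removed, and 9 to 14 without 1 library. It was 0 lower under all alternatives run. Shares of all genes called are given only for the counts as reported, so counts under the alternatives lack that background. In A549 the pseudocount gave 12 higher and 3 lower, and voom 1 and 1 lower, against 4 and 0, with 3 to 4 higher without 1 library. The 4 genes with a higher change in H460 became 11 with the pseudocount, 14 with median-of-ratios factors, 10 with quantile normalization, 10 and 12 with voom, 17 each with GC or length trends removed, and 3 to 7 without 1 library. Voom gave 1 and 1 with a lower change, namely H2BC8 at -2.40 (adjusted p 0.0118) and -2.08 (adjusted p 0.0278) in place of 0.42 (its A549 controls had no reads), and leaving out A549 ISP-I library 3 gave 1 (H4C11), with a range of 0 to 1. Between control lines, 5 higher in H460 became 10 with the pseudocount, 3 at 1 FPKM and 8 and 9 with voom (4 to 6 without 1 library), and 4 lower became 7 with the pseudocount (4 to 5). The A549 ratio of sums, 1.58, was 1.74 on recovered reads scaled by library total (1.55 to 1.65 without 1 library), and that of H460 was 1.78 to 2.56 without 1 library. Other causes were not tested. H4C12 and H4C14 in H460 lost the call without a filter (adjusted p 0.0549 and 0.0526). Of single-gene values under the alternatives, 289 kept their side of the threshold in H460 (4 lost it, 24 gained it), 330 in A549 (5 and 10), 416 for the difference (5 and 52) and 315 between controls (8 and 9). Depth limits the 36 genes under 1 FPKM most.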
